A study of Mus musculus with 12 samples.

Results

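The miR-99, miR-100 and miR-125 families are described here by their 5 abundant mature forms, mmu-mir-99a-5p, mmu-mir-99b-5p, mmu-mir-100-5p, mmu-mir-125a-5p and mmu-mir-125b-5p, written below as miR-99a-5p and so on. They were taken by name from a table of 1251 mouse miRNAs measured by small RNA sequencing in 12 libraries, together with the miRNAs of the same genomic clusters. The tumours were cutaneous squamous cell carcinomas (SCC) that arose under chronic ultraviolet radiation (UVR), given at 2.5 kJ per square metre, 3 times a week, in mice older than 35 weeks. 4 SCC libraries came from TAp63-/- mice (KO SCC) and 2 from wild-type mice (WT SCC). Untreated dorsal skin of mice aged 4 weeks gave 3 TAp63-/- libraries (KO skin) and 3 wild-type libraries (WT skin). All mice were of the C57Bl6 strain, and TAp63-/- removes the p63 isoforms that carry the transactivation domain, p63 being a transcription factor of the p53 family. Tumour and skin differed in tissue, age and UVR at once, so these effects cannot be told apart, and a table of miRNAs holds no value for the deleted gene itself.

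A miRNA is cut from a hairpin transcript, and an Argonaute protein holds the mature strand and pairs it with messenger RNAs mainly through its seed, the bases just after its first. miRNAs with the same seed are grouped as a family because they share most of their targets. The miR-99 and miR-100 family is known for repressing MTOR and IGF1R messages in human cells, and miR-125b is known in mouse skin for keeping hair follicle stem cells undifferentiated. In the mouse genome each family was copied along with a let-7 miRNA, so that every cluster holds a member of the miR-99 and miR-100 family, a let-7 and a miR-125. let-7 miRNAs are known for restraining growth through targets such as Hmga2.

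The mature sequences, from RefSeq (GRCm38.p6), are shown because they decide which members share a seed and how far reads of close relatives can be told apart. Each runs 5′ to 3′ and bases 2 to 8, the seed, are in capitals.
miR-99a-5p: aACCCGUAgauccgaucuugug
miR-100-5p: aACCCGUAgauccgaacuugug
miR-99b-5p: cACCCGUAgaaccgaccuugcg
miR-125a-5p: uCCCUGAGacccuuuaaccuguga
miR-125b-5p: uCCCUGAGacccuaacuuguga
miR-99a-5p, miR-100-5p and miR-99b-5p had the same seed, ACCCGUA, and both miR-125 members had the seed CCCUGAG. miR-100-5p and miR-99a-5p differed at a single base, A16U, with positions counted from 1 at the 5′ end of miR-100-5p. From miR-99a-5p to miR-99b-5p there were 4 substitutions, A1C, U11A, U16C and U21C. miR-125b-5p and miR-125a-5p shared their first 13 bases and had 22 and 24 bases. Reads of miR-99a-5p and miR-100-5p could be split between the pair by the counting, so how the pair divides is uncertain. The same limit holds for the let-7 miRNAs of the clusters. let-7c-5p and let-7a-5p differed at a single base, G19A, and let-7a-5p and let-7e-5p at a single base, U9G. Among the other miRNAs of the table, miR-351-5p was tested and held the miR-125 seed, while miR-6367 and miR-6394 held it and did not pass the filter on low values.

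The genes lie in 3 clusters, all on the plus strand of GRCm38, the assembly known as mm10. On chromosome 16, Mir99a (chr16:77598936-77599000), Mirlet7c-1 (chr16:77599657-77599750) and Mir125b-2 (chr16:77646273-77646343) lie in introns of the noncoding host gene Mir99ahg, over 47408 bases. On chromosome 9, Mir100 (chr9:41531425-41531504), Mirlet7a-2 (chr9:41536716-41536811) and Mir125b-1 (chr9:41581926-41582002) lie over 50578 bases in introns of the noncoding genes 3110039I08Rik and Gm49317. The chromosome 17 cluster is compact, at 692 bases, with Mir99b (chr17:17830188-17830257) and Mirlet7e (chr17:17830352-17830444) in introns of Spaca6 and Mir125a (chr17:17830812-17830879) overlapping an annotated Spaca6 exon. Mature miR-125b-5p comes from both Mir125b-1 and Mir125b-2, so its level sums over 2 clusters.

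The hairpins' other arms are read from the same transcripts and are mostly far scarcer. They are shown because the 3p arms, unlike miR-125b-5p, tell the 2 miR-125b hairpins apart, with bases 2 to 8 again in capitals.
miR-125b-1-3p: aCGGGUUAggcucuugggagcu
miR-125b-2-3p: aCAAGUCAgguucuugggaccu
miR-99a-3p: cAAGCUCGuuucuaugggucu
miR-99b-3p: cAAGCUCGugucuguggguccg
The Mir125b-1 hairpin, also from RefSeq, with both mature arms in capitals, shows how the 2 strands sit in a transcript.
Mir125b-1: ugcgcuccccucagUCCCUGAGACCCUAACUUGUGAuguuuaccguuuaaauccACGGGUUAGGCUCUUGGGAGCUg

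Values are the authors' quantile-normalized log2 levels, in which the smallest value stands for a linear value of 10, the floor. The normalization gives the libraries nearly the same set of values, although the number of miRNAs at the floor differs, and the depth of each library is unknown. KO SCC libraries had 432 to 545 miRNAs above the floor, WT SCC libraries 402 to 420, KO skin libraries 370 to 465 and WT skin libraries 390 to 433. All 5 members were above the floor in all 12 libraries, and 544 of the 1251 rows passed the filter of 2 libraries above it. miR-99b-5p was the most abundant member in both tissues, with a median log2 level of 16.10 in SCC and 16.72 in skin (n = 6 libraries each). In skin the order continued with miR-100-5p at 15.51, miR-125b-5p at 14.78, miR-99a-5p at 14.65 and miR-125a-5p at 14.61, and the ranges of the last 3 overlapped. The range of miR-100-5p in skin, from 15.08, lay below that of miR-99b-5p and above that of miR-125b-5p. It overlapped those of miR-99a-5p, up to 15.88, and miR-125a-5p, up to 15.23. In SCC the order was different, with miR-125b-5p at 14.32 and miR-125a-5p at 14.22, whose ranges overlapped, above miR-100-5p at 12.42 and miR-99a-5p at 12.10, whose ranges also overlapped. The lowest miR-125a-5p level in SCC, 12.82, reached below the highest of miR-100-5p, 13.08.

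**Figure D1:**
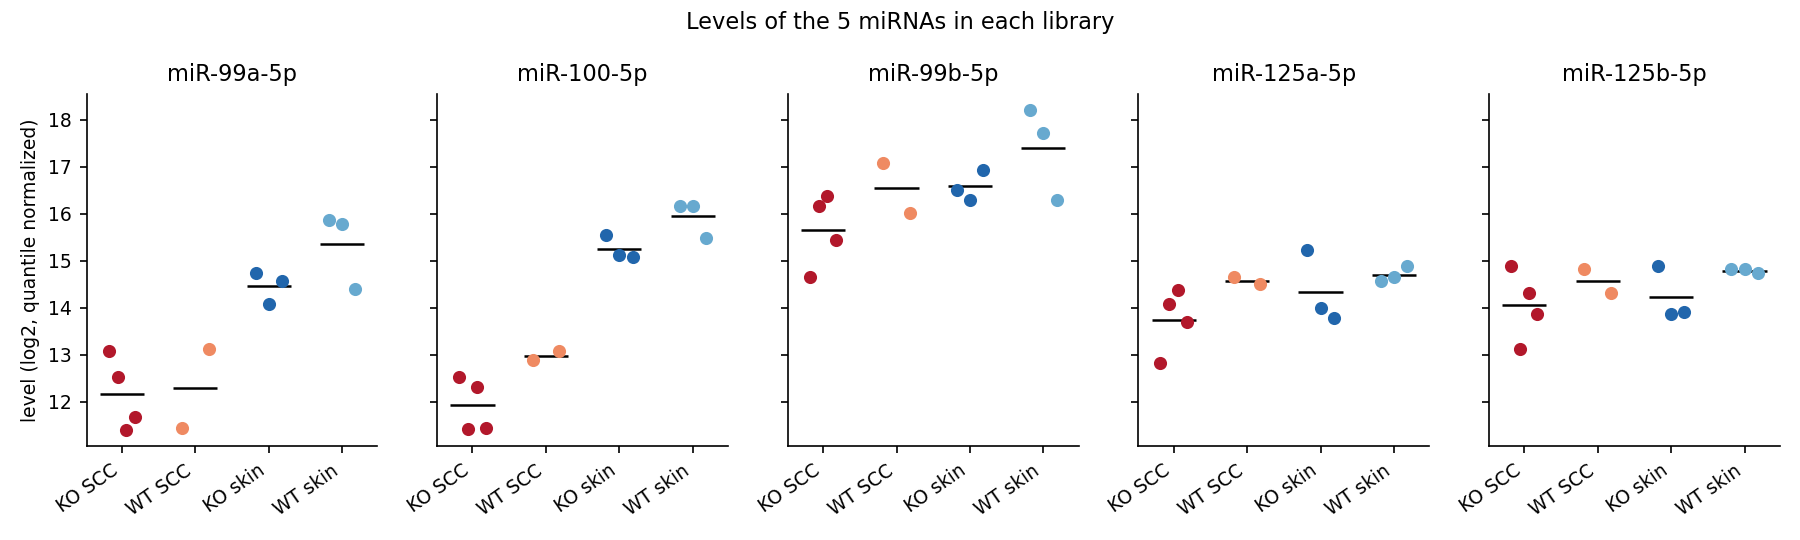
Level of each of the 5 miRNAs (log2, quantile normalized) in every library of the 4 groups; points are libraries and lines are group means. miR-99a-5p and miR-100-5p lie lower in all 6 SCC libraries than in any skin library, while the groups overlap for the other 3.

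The comparison of SCC with skin asks which family members differ between UVR-induced tumours and untreated skin, with the change averaged over the 2 genotypes. 2 of the 5 members fell in SCC, miR-100-5p and miR-99a-5p, and miR-99b-5p, miR-125a-5p and miR-125b-5p did not pass the test. In limma with Benjamini-Hochberg adjustment over the 544 tested miRNAs, an adjusted p under 0.05 was called. Tumour differences were common in these libraries, since 41.9% of all tested miRNAs were called, 21.5% lower and 20.4% higher. The median change of the 5 members was -0.89 on the log2 scale, against 0.04 over all tested miRNAs.

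miR-100-5p had log2 levels of 12.53, 11.42, 12.31 and 11.45 in KO SCC and 12.89 and 13.08 in WT SCC, against 15.54, 15.13 and 15.08 in KO skin and 16.17, 16.17 and 15.49 in WT skin. All 6 SCC libraries lay below all 6 skin libraries, as they did for 11.6% of the tested miRNAs. The averaged log2 change was -3.14 ± 0.25 (SE; limma adjusted p = 8.01e-06). On the linear scale this is 8.83-fold lower in SCC, with a 95% interval of 6.06 to 12.9.

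miR-99a-5p, which differs from miR-100-5p by the single base above, had log2 levels of 13.08, 12.53, 11.40 and 11.67 in KO SCC and 11.45 and 13.13 in WT SCC, against 14.74, 14.07 and 14.57 in KO skin and 15.88, 15.78 and 14.41 in WT skin. The tissues again did not overlap, and the WT SCC libraries stood further apart from each other than any 2 KO skin libraries did. The averaged log2 change was -2.68 ± 0.41 (SE; limma adjusted p = 0.00042), or 6.40-fold lower in SCC with a 95% interval of 3.44 to 11.9.

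miR-99b-5p carries the same seed from the chromosome 17 cluster. Its log2 levels were 14.65, 16.17, 16.37 and 15.45 in KO SCC and 17.07 and 16.02 in WT SCC, against 16.51, 16.29 and 16.94 in KO skin and 18.21, 17.72 and 16.29 in WT skin. 4 of the 6 SCC libraries lay below all skin libraries and the other two lay among them. The averaged log2 change was -0.89 ± 0.40 (SE; limma adjusted p = 0.101), with a 95% interval of -1.76 to -0.01. Without WT skin replicate 3, the lower of the WT skin libraries, it was -1.17 (limma adjusted p = 0.0247).

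The miR-125 members overlapped between the tissues. miR-125a-5p had log2 levels of 12.82, 14.07, 14.37 and 13.70 in KO SCC and 14.65 and 14.50 in WT SCC, against 15.23, 13.99 and 13.79 in KO skin and 14.57, 14.65 and 14.90 in WT skin. miR-125b-5p had 14.90, 13.13, 14.32 and 13.86 in KO SCC and 14.82 and 14.32 in WT SCC, against 14.90, 13.86 and 13.91 in KO skin and 14.82, 14.82 and 14.74 in WT skin. The averaged log2 changes were -0.36 ± 0.31 for miR-125a-5p (SE; limma adjusted p = 0.388; 95% interval -1.05 to 0.33) and -0.20 ± 0.30 for miR-125b-5p (SE; limma adjusted p = 0.629; 95% interval -0.87 to 0.47). Both intervals lie above the change of miR-99a-5p and miR-100-5p. miR-351-5p, which shares their seed, changed by 0.13 on the log2 scale (limma adjusted p = 0.744).

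Markers of other cell types also differed between the tissues. The summed linear levels of the 5 striated muscle miRNAs were 4750 to 16069 in KO SCC and 5914 to 31462 in WT SCC, against 66537 to 90052 in KO skin and 73106 to 79738 in WT skin, and 4 of the 5 were called lower. The other striated muscle miRNA, miR-499-5p, was higher in SCC in the mean but not called (limma adjusted p = 0.11). It was above the floor in 5 SCC libraries and in 0 skin libraries. Both melanocyte miRNAs, 2 of 6 stromal miRNAs and the neural miR-9-5p, miR-128-3p and miR-338-3p were called lower. Summed stromal levels overlapped between the tissues, at 177285 to 436085 in KO SCC and 236693 to 273154 in WT SCC. In skin the stromal sums were 420216 to 693518 in KO and 217194 to 372026 in WT libraries. The neural list was not uniform, since miR-219-5p was called higher, at a log2 change of 0.90 (limma adjusted p = 0.037). miR-124-3p, the defining neural miRNA, was at the floor in all 12 libraries. 2 of 4 leukocyte, 2 of 3 red cell and 1 of 2 endothelial miRNAs were called higher. The red cell miR-486-5p changed by -0.69 (limma adjusted p = 0.193). Summed red cell levels overlapped, at 16981 to 96939 in KO SCC and 25109 to 59667 in WT SCC, against 34962 to 74782 in KO skin and 36995 to 55068 in WT skin. The lowest leukocyte sum in KO SCC, 15962, lay below the lowest in skin, 18746. Of 7 keratinocyte miRNAs, 1 was called higher and 1 lower, and all 7 were above the floor in every library. In whole tissue, fewer cells of a type and less RNA per cell cannot be told apart, and the part of these markers in the falls of miR-99a-5p and miR-100-5p was not tested.

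Within each genotype the same pair was called. In TAp63-/- mice, miR-100-5p changed by -3.32 ± 0.32 (SE; limma adjusted p = 4.31e-05) and miR-99a-5p by -2.29 ± 0.52 (SE; limma adjusted p = 0.00574) on the log2 scale, where 34.2% of tested miRNAs were called, 18.2% lower. In wild-type mice, miR-100-5p changed by -2.96 ± 0.38 (SE; limma adjusted p = 0.000853) and miR-99a-5p by -3.07 ± 0.63 (SE; limma adjusted p = 0.00798), where 18.2% were called, 9.38% lower and 8.82% higher. The wild-type call of miR-99a-5p was lost without WT SCC replicate 1 (-2.22; limma adjusted p = 0.104) and when only the wild-type libraries were fitted (limma adjusted p = 0.108). miR-99b-5p changed by -0.92 in TAp63-/- mice (limma adjusted p = 0.191) and -0.86 in wild-type mice (limma adjusted p = 0.376). The miR-125 members were between -0.59 and -0.13 in the 2 genotypes, with neither called.

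Whether the loss of TAp63 itself went with other levels of the 5 miRNAs was asked in skin and in SCC apart. No member was called in either tissue. In skin, 0% of tested miRNAs were called, with 31 at an unadjusted p under 0.05, and in SCC 0.184% were called, with 46 at an unadjusted p under 0.05. The mean of every member was lower in KO skin than in WT skin, by log2 differences of -0.37 for miR-125a-5p to -0.90 for miR-99a-5p, against a median of 0 over all tested miRNAs (limma adjusted p = 1 for each). Their 3p arms went both ways in skin, with miR-99a-3p at 0.63, miR-125b-2-3p at 0.54 and miR-125a-3p at 0.08. miR-100-3p stood at -0.42, miR-99b-3p at -0.17 and miR-125b-1-3p at -0.02. In SCC the differences between KO and WT tumours were -0.12 for miR-99a-5p to -1.05 for miR-100-5p, against a median of 0.07 over all tested miRNAs.

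miR-100-5p had the largest mean difference of the 5 members between KO and WT SCC. Its log2 difference was -1.05 ± 0.36 (SE; limma adjusted p = 0.345; 95% interval -1.84 to -0.26). For miR-125a-5p the log2 difference in SCC was -0.83 ± 0.46 (SE; limma adjusted p = 0.59). In skin the difference of miR-100-5p was -0.69 ± 0.34 (SE; limma adjusted p = 1), with KO skin replicate 1 at 15.54 above WT skin replicate 3 at 15.49. It was called only when libraries were weighted by quality (-0.88; limma adjusted p = 0.0341). No member was called for the interaction. The interaction, the TAp63-/- tumour change minus the wild-type one, lay between -0.47 for miR-125a-5p and 0.77 for miR-99a-5p. Its smallest limma adjusted p was 0.851 among the members, and 0% of tested miRNAs were called, with 41 at an unadjusted p under 0.05. Its 95% intervals were wide, -1.02 to 2.57 for miR-99a-5p and -1.44 to 0.73 for miR-100-5p.

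miRNAs of a cluster can come from a common transcript, so their levels were compared within each library. 12 pairs were compared by an exact two-sided permutation of tissue within genotype, with 350 arrangements, a smallest possible p of 0.00286 and Benjamini-Hochberg adjustment over the 12 pairs. On chromosome 9, the log2 level of miR-100-5p minus that of miR-125b-5p was -2.37, -1.71, -2.0 and -2.41 in KO SCC and -1.93 and -1.24 in WT SCC, against 0.64, 1.27 and 1.16 in KO skin and 1.35, 1.35 and 0.75 in WT skin. miR-100-5p was thus the scarcer of the pair in all 6 SCC libraries and the more abundant in all 6 skin libraries. The difference between tissues was -2.94 ± 0.21 (SE; exact permutation adjusted p = 0.0137). Against let-7a-5p it was -3.44 ± 0.29 (SE; exact permutation adjusted p = 0.0137), with all SCC libraries below all skin libraries. The pair differences here and below are not independent of the tests of single miRNAs, where miR-100-5p changed by -3.14 and miR-125b-5p by -0.20.

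On chromosome 16, miR-99a-5p minus miR-125b-5p was -1.82, -0.60, -2.92 and -2.19 in KO SCC and -3.37 and -1.19 in WT SCC, against -0.16, 0.21 and 0.65 in KO skin and 1.06, 0.96 and -0.33 in WT skin, on the log2 scale. The tissues did not overlap, although KO SCC replicate 2 at -0.60 and WT skin replicate 3 at -0.33 were close. The difference between tissues was -2.48 ± 0.55 (SE; exact permutation adjusted p = 0.0137). It was -2.57 ± 0.49 against let-7c-5p (SE; exact permutation adjusted p = 0.0137), again with no overlap. let-7c-5p minus miR-125b-5p, by contrast, ranged over 1.80 to 2.89 in SCC and 1.80 to 2.92 in skin, and differed by 0.09 ± 0.20 between tissues (SE; exact permutation adjusted p = 0.714). Both of these mature forms can also come from a second hairpin elsewhere in the genome, and let-7a-5p likewise.

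The compact chromosome 17 cluster gave no called pair. The log2 differences between tissues were -0.83 for miR-99b-5p minus let-7e-5p (exact permutation adjusted p = 0.211), -0.53 for miR-99b-5p minus miR-125a-5p (exact permutation adjusted p = 0.36) and 0.30 for let-7e-5p minus miR-125a-5p (exact permutation adjusted p = 0.36). Without WT skin replicate 3, miR-99b-5p minus let-7e-5p was -1.15 (exact permutation adjusted p = 0.019). The let-7 partners themselves were not called in SCC against skin, at log2 changes of 0.30 for let-7a-5p (limma adjusted p = 0.187), -0.10 for let-7c-5p (limma adjusted p = 0.744) and -0.06 for let-7e-5p (limma adjusted p = 0.893). The signs of the last 2 turned under median-ratio scaling, which moved the median of all tested miRNAs to 0.16.

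**Figure D2:**
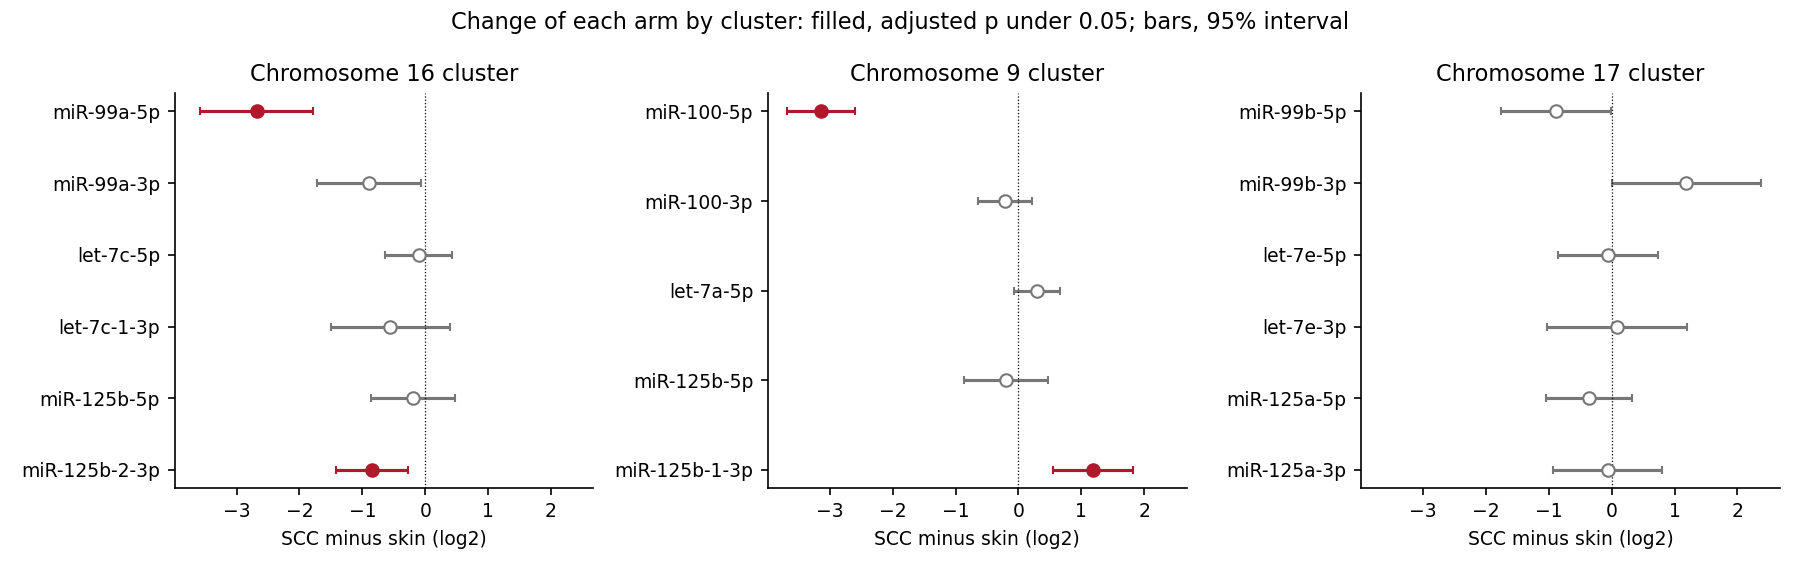
Log2 change of each mature arm, SCC minus skin averaged over genotypes, with its 95% interval, for the miRNAs of each cluster from top to bottom along the genome; filled points had a limma adjusted p under 0.05. miR-99a-5p and miR-100-5p lie at -2.68 and -3.14, while their let-7 and miR-125b-5p neighbours lie near 0. miR-125b-5p appears in 2 panels because both hairpins make it.

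Of the 4 paralog pairs that share a seed, 2 differed between the tissues. miR-100-5p minus miR-99b-5p was -4.75 to -2.12 in SCC with a median of -4.03, against -2.04 to -0.80 in skin with a median of -1.35, on the log2 scale. The difference between tissues was -2.25 ± 0.51 (SE; exact permutation adjusted p = 0.0137), with all 6 SCC libraries below all skin libraries. miR-99a-5p minus miR-99b-5p differed by -1.79 ± 0.67 (SE; exact permutation adjusted p = 0.0343), and here KO SCC replicate 1, at -1.57, lay above every skin library. That call was lost when any library other than KO SCC replicate 1 was left out (exact permutation adjusted p of 0.0571 to 0.0933). miR-100-5p minus miR-99a-5p differed by -0.46 ± 0.41 (SE; exact permutation adjusted p = 0.36) and miR-125b-5p minus miR-125a-5p by 0.16 ± 0.47 (SE; exact permutation adjusted p = 0.8).

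Summed on the linear scale, the 3 miRNAs with the ACCCGUA seed made up 0.663% to 2.44% of the summed values of an SCC library (median 1.37%), against 2.19% to 7.22% of a skin library (median 2.91%). WT SCC replicate 1, at 2.44%, was level with WT skin replicate 3, at 2.43%, and above KO skin replicate 2, at 2.19%. miR-99b-5p held 63.8% to 93.0% of this sum in SCC (median 88.8%), against 54.1% to 69.4% in skin (median 61.2%). The share of miR-100-5p was 3.32% to 14.7% in SCC and 16.9% to 31.1% in skin. miR-99a-5p held 1.89% to 21.5% in SCC, against 13.0% to 16.2% in skin. These shares follow from the levels already tested and have no test of their own.

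**Figure D3:**
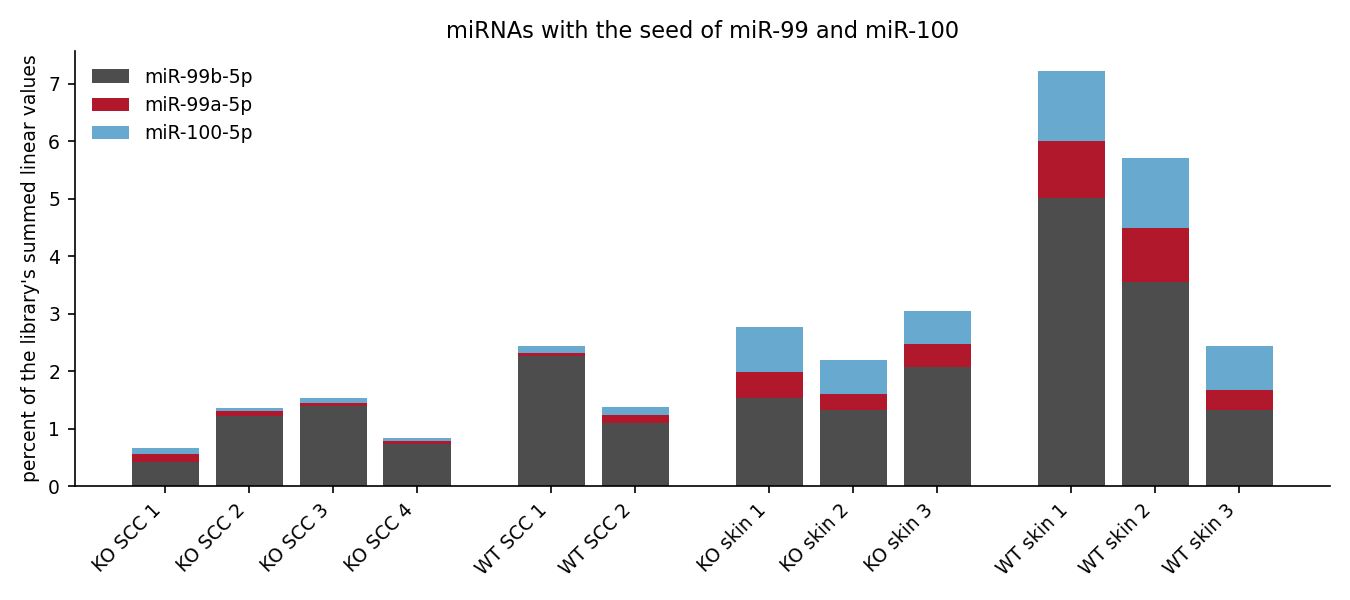
Share of each library's summed linear values held by the 3 miRNAs with the ACCCGUA seed, stacked by miRNA, with a bar for every library. The SCC bars, at 0.663% to 2.44%, consist mostly of miR-99b-5p, while miR-99a-5p and miR-100-5p hold visible shares of the skin bars, which reach 7.22% in WT skin replicate 1.

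The 2 miR-125 members together made up 0.432% to 0.899% of an SCC library and 0.488% to 1.14% of a skin library. miR-125a-5p held 45.7% to 55.8% of this sum in the skin libraries. In SCC it held 47.1% to 65.8% apart from KO SCC replicate 1, where it held 19.2%.

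The passenger arms of miR-125b moved in opposite directions while miR-125b-5p was not called. miR-125b-1-3p, from the chromosome 9 hairpin, had log2 levels of 9.90, 9.48, 11.07 and 10.11 in KO SCC and 10.85 and 9.94 in WT SCC, against 9.26, 9.22 and 8.72 in KO skin and 9.01, 8.94 and 9.31 in WT skin. All 6 SCC libraries lay above all 6 skin libraries, as they did for 10.5% of tested miRNAs. The averaged log2 change was 1.19 ± 0.29 (SE; limma adjusted p = 0.00715), or 2.28-fold higher in SCC with a 95% interval of 1.47 to 3.55.

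miR-125b-2-3p, from the chromosome 16 hairpin, had log2 levels of 10.79, 10.60, 9.78 and 9.98 in KO SCC and 9.06 and 10.24 in WT SCC, against 11.10, 11.05 and 11.10 in KO skin and 10.44, 10.33 and 10.87 in WT skin. 4 of the 6 SCC libraries lay below all skin libraries. It fell by 0.84 ± 0.26 on the log2 scale (SE; limma adjusted p = 0.024), a call lost without WT SCC replicate 1 (-0.55; limma adjusted p = 0.131) or WT skin replicate 3 (-0.76; limma adjusted p = 0.0562). miR-125b-1-3p minus miR-125b-2-3p, a pair set side by side after the values were seen and so not tested, was -0.89, -1.12, 1.29 and 0.12 in KO SCC and 1.79 and -0.30 in WT SCC, against -1.84, -1.84 and -2.39 in KO skin and -1.43, -1.38 and -1.57 in WT skin. Every SCC library lay above every skin library.

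The balance of guide and passenger arm was compared in 5 arm pairs by the same exact permutation test, adjusted over the 5. The 5p arm of miR-99b minus its 3p arm was 7.58 to 9.63 in SCC with a median of 8.37, against 9.74 to 11.6 in skin with a median of 10.5, on the log2 scale, with no overlap. The difference between tissues was -2.07 ± 0.46 (SE; exact permutation adjusted p = 0.0143). The 2 arms of miR-99b went opposite ways in the means, since miR-99b-3p changed by 1.19 ± 0.54 (SE; limma adjusted p = 0.106). In 5 of 6 SCC libraries miR-99b-3p lay above all skin libraries, and in KO SCC replicate 1 it lay below all of them. Without that library its change was 1.57 (limma adjusted p = 0.00165).

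For miR-99a the arm difference was 4.13 to 5.53 in SCC, against 5.45 to 8.20 in skin, a change of -1.78 ± 0.41 (SE; exact permutation adjusted p = 0.0143). The change of miR-99a-3p itself was -0.90 ± 0.38 (SE; limma adjusted p = 0.0806), and it was called without KO SCC replicate 1 (-1.13; limma adjusted p = 0.0079). Since miR-125b-5p sums over both of its hairpins, its difference from either 3p arm is not the arm balance of a single hairpin. miR-125b-5p minus miR-125b-1-3p changed by -1.39 ± 0.33 (SE; exact permutation adjusted p = 0.0143). miR-125b-5p minus miR-125b-2-3p changed by 0.65 ± 0.45 (SE; exact permutation adjusted p = 0.151) and the arms of miR-125a by -0.29 ± 0.18 (SE; exact permutation adjusted p = 0.151). miR-100-3p was at or near the floor, at most 4.26, so the arms of miR-100 were not tested, and let-7a-2-3p was at the floor in all 12 libraries.

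**Figure D4:**
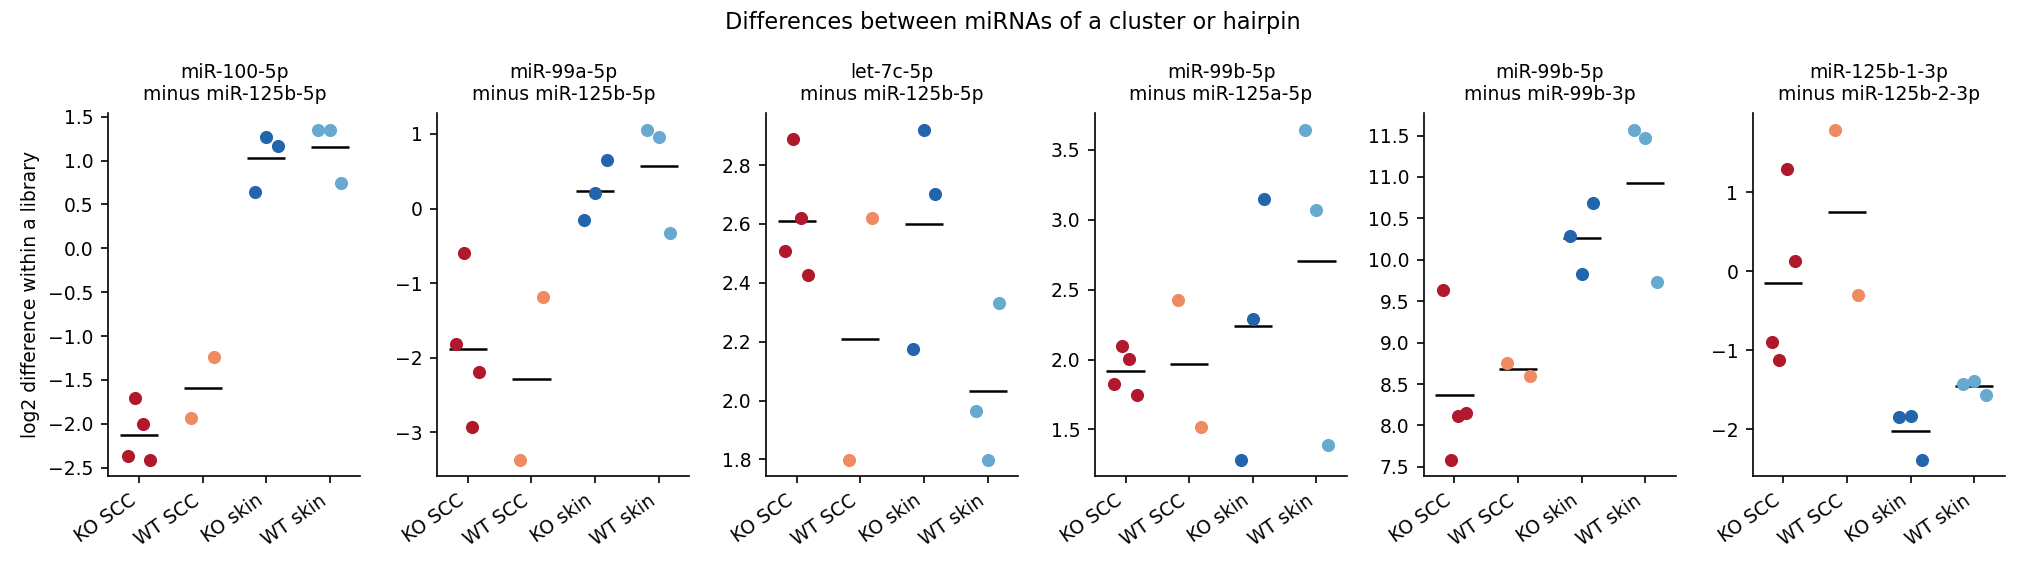
Log2 difference between 2 miRNAs of a cluster or hairpin within each library, in the 4 groups; points are libraries and lines are group means. miR-100-5p minus miR-125b-5p is below 0 in all 6 SCC libraries and above 0 in all 6 skin libraries, while let-7c-5p minus miR-125b-5p overlaps between the tissues. The last panel was chosen after the values were seen.

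KO SCC replicate 1 stood apart by cluster, a pattern picked out after the values were seen and given here without a test. All 6 arms of the chromosome 17 cluster had their lowest value of the 12 libraries there, as did 9.74% of all tested miRNAs. miR-99b-5p was 14.65 in that tumour, against 15.45 to 17.07 in the other 5, let-7e-5p was 10.98 against 12.38 to 13.38, and miR-125a-5p was 12.82 against 13.70 to 14.65, as log2 levels. Relative to the median of the other 5 tumours, the 3p arms stood at log2 differences of -3.25 for miR-99b-3p, -2.59 for let-7e-3p, which was at the floor, and -1.53 for miR-125a-3p. The 5p arms stood at -1.52 for miR-99b-5p, -1.75 for let-7e-5p and -1.55 for miR-125a-5p.

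In the same tumour, 5 of the 6 arms of the chromosome 16 cluster had their highest value of the 6 SCC libraries, as did 15.4% of all tested miRNAs, and miR-99a-5p had its second highest. Relative to the median of the other 5 tumours, miR-99a-3p stood at 1.57, let-7c-1-3p at 1.72, miR-99a-5p at 1.40, miR-125b-2-3p at 0.80, let-7c-5p at 0.79 and miR-125b-5p at 0.58 on the log2 scale. miR-125b-5p, listed with this cluster, is also made on chromosome 9. The other arms of the chromosome 9 cluster stood at 0.22 for miR-100-5p, 0.23 for let-7a-5p, -0.21 for miR-125b-1-3p and 0.75 for miR-100-3p, which is near the floor. The library had 432 miRNAs above the floor, within the range of the others but under the other KO SCC libraries, at 489, 545 and 476. Leaving it out kept miR-100-5p and miR-99a-5p called in SCC against skin.

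**Figure D5:**
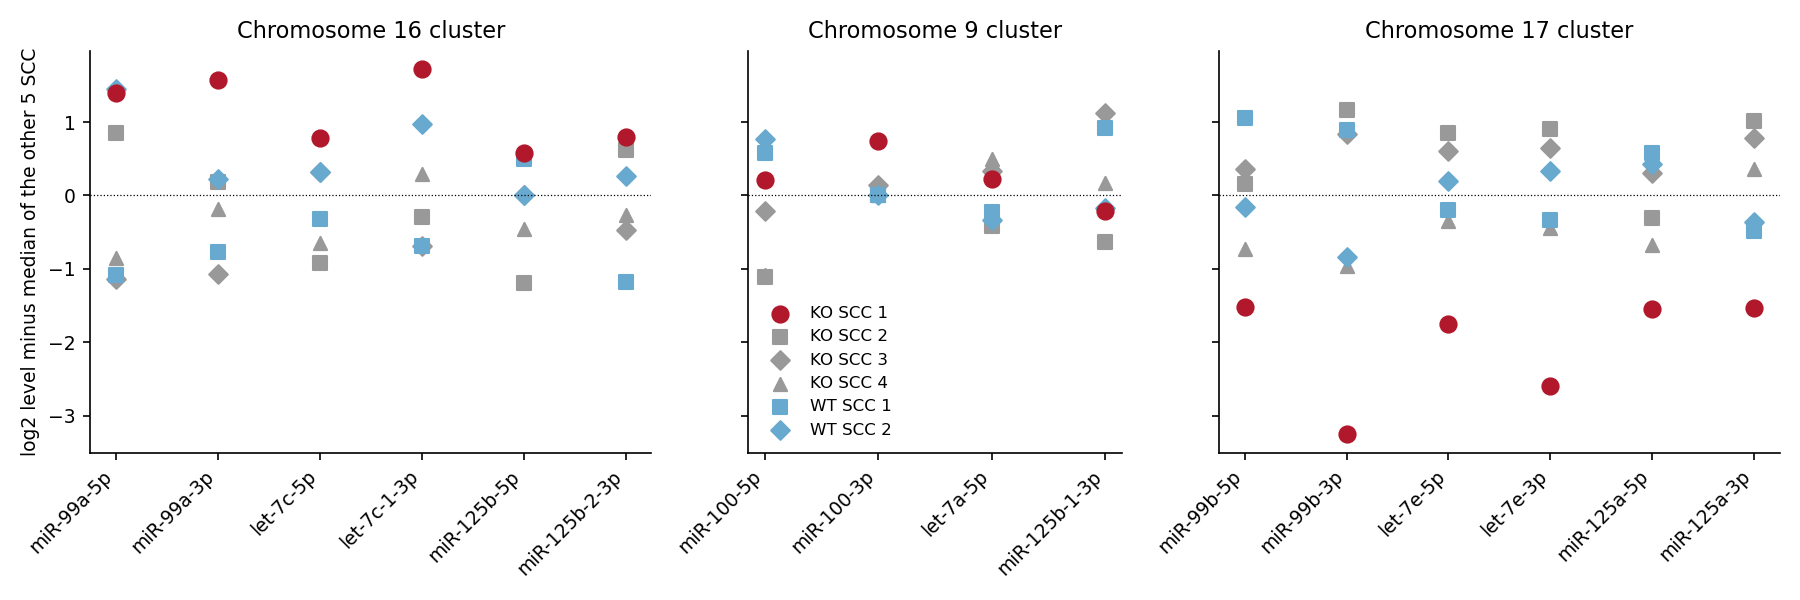
Log2 level in each SCC library minus the median of the other 5, for the mature arms of each cluster. KO SCC replicate 1 (circles) lies lowest for all 6 arms of the chromosome 17 cluster, at -3.25 to -1.52, and above 0 for all 6 arms of the chromosome 16 cluster, at 0.58 to 1.72.

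The tested miRNAs with the most similar profile to each member were ranked by the root mean square difference of their log2 values over the 12 libraries, each miRNA first centred on its own mean. For miR-100-5p the nearest of 543 were miR-409-5p at 0.56, miR-338-3p at 0.60 and miR-133b-3p at 0.61, with miR-99a-5p in place 5 at 0.72. Its cluster partners were miR-125b-5p in place 147 at 1.56 and let-7a-5p in place 323 at 1.93, against a median of 1.83 over the tested miRNAs. For miR-99a-5p they were miR-146a-5p at 0.58, miR-133b-3p at 0.60 and miR-10b-3p at 0.64, with miR-100-5p in place 7 at 0.72, and with its cluster partners miR-125b-5p in place 175 and let-7c-5p in place 199. miR-133b-3p is on the striated muscle list and miR-338-3p on the neural list above.

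miR-125b-5p was nearest to its cluster partner let-7c-5p, at 0.37, followed by miR-365-3p at 0.38 and let-7b-5p at 0.40. The nearest to miR-125a-5p were miR-879-5p at 0.38, miR-194-5p at 0.47 and miR-497-5p at 0.48, with its cluster partner let-7e-5p in place 5 at 0.50. Those of miR-99b-5p were miR-212-5p at 0.54, miR-152-3p at 0.60 and miR-322-3p at 0.64, with its cluster partners miR-125a-5p in place 14 and let-7e-5p in place 56. The points share libraries and normalization, so these distances are descriptions.

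miR-10a-5p and miR-10b-5p are evolutionary relatives of the miR-99 and miR-100 family. miR-10b-5p fell by 1.69 ± 0.14 on the log2 scale in SCC (SE; limma adjusted p = 1.29e-05). It held the top rank in all 6 skin libraries, where the normalization fixes its value. The skin libraries therefore added no spread to its SE and p-value. miR-10a-5p changed by -0.72 ± 0.36 (SE; limma adjusted p = 0.138), and its 3 WT skin libraries likewise shared a single value.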

How the data were processed

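The authors deposited a table of log2 values for 1251 miRNAs. Its columns hold nearly the same set of values, as quantile normalization leaves them, although the number of rows at the floor differs. No value is under the log2 of 10. The submitters' processing notes name the build mm10, while an aligner or counter is not given in the sources used here. For this report, group means of the 4 groups were fitted in limma (version 3.58.1, R 4.3.3) to the 544 miRNAs with a value over the floor in 2 or more libraries. Variances were trended and robust, and p-values of each of the 6 contrasts were adjusted by Benjamini and Hochberg's method. Since the labels do not say that each sample is another mouse, the p-values cover only the spread among the samples, part of which could be technical. Replicates are numbered in accession order. Pair and arm differences used exact permutation tests over 350 arrangements. The text names the 5 members, other arms and miRNAs of their clusters, miRNAs with their seeds, miR-10a and miR-10b, and the 3 nearest profiles per member. These members and lists were chosen with earlier results of these data known. Of the 1251 rows, 1001 matched a RefSeq mature miRNA by name, all 5 members among them. The methods were checked on simulated data. 11 kinds of alternative were tried.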

Additional observations from a re-analysis of the deposited data

How the results depend on the processing

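miR-100-5p and miR-99a-5p stayed lower and called in SCC against skin, averaged over genotypes, under all 21 alternatives (adjusted p up to 0.000131 and 0.00369). So did 4 cluster pairs with them and miR-100-5p minus miR-99b-5p under all 16. Median-ratio scaling is among the 16 but shifts both miRNAs of a pair alike, so it could not change a pair. Without a filter, 881 miRNAs were called in the averaged comparison, of which 647 were at the floor in all libraries and have no spread. In wild-type mice 57 were called without a filter and 62 with only those groups fitted, against 99. Leaving out a library in turn gave 32 (without WT SCC replicate 1) to 118 there. For KO against WT skin, quality weights gave 22 calls and leave-outs 0 to 2. For KO against WT SCC, 0 were called with 6 libraries above the floor, without a filter or with only those groups, 2 with plain empirical Bayes, and 1 to 13 in leave-outs (13 without WT SCC replicate 2). The interaction had 0 to 11 in leave-outs (11 without WT SCC replicate 2). The cause was not tested.

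Over leave-outs, the averaged log2 change of miR-99b-5p was -1.17 to -0.63, miR-99a-5p minus miR-99b-5p -2.47 to -1.10 and miR-99b-5p minus let-7e-5p -1.15 to -0.51. Signs turned only for uncalled values. Under median-ratio scaling these were the averaged miR-125a-3p (0.054), let-7c-5p (0.016) and let-7e-5p (0.059), miR-125a-5p in wild-type mice (0.020) and the interaction of miR-125b-5p (-0.0032). With quality weights they were miR-125b-5p in TAp63-/- mice (0.016) and the interaction of miR-99b-5p (0.26). Over leave-outs, averaged changes ran from -0.22 to 0.17 for miR-125a-3p, -0.23 to 0.0032 for let-7c-5p, -0.21 to 0.19 for let-7e-5p, -0.11 to 0.42 for let-7e-3p and -0.30 to 0.56 for miR-351-5p. miR-125b-5p ran from -0.45 to 0.16 in TAp63-/- mice and -0.47 to 0.027 in wild-type mice, and miR-99a-5p in KO against WT SCC from -0.96 to 0.72. Interactions ran from -0.067 to 1.62 for miR-99a-5p, -0.58 to 0.50 for miR-99b-5p and -0.23 to 0.39 for miR-125b-5p. let-7c-5p minus miR-125b-5p ran from -0.11 to 0.30 and miR-125b-5p minus miR-125a-5p from -0.13 to 0.37. Among single miRNAs, alternatives added a call 6 times, that of miR-99b-5p included, and ended a call 4 times. No paired analysis was possible because skin and tumours came from mice of different ages and the running numbers in the sample titles only name samples. Depth is unknown, and values near the floor understate changes. A fit that leaves a group with 1 library assumes that it varies like the others.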
